A study of Homo sapiens with 18 samples.

Results

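The lysosome and autophagy genes described here are 34 genes chosen by name from a table of RNA-seq expression, and all 34 were among the 12853 genes of that table. They comprise 5 lysosomal membrane proteins, 8 cathepsins and other proteases, 5 glycosidases, 3 lipid handling proteins, 2 transcription factors, 3 proteins of autophagy initiation, 4 proteins that attach ATG8 proteins to membranes, and 3 ATG8 proteins with the receptor SQSTM1. The rule used gene names alone, and the list was drawn up with earlier results of these data known. RNA was sequenced from 6 human ovarian cancer cell lines with 3 replicates each, giving 18 libraries that form 3 pairs of a platinum-sensitive and a platinum-resistant line. A2780 is labelled an endometrial or ovarian cancer line, and its resistant derivative CP70 was obtained in vitro. PEA1 (sensitive) and PEA2 (resistant) came from ascites of the same patient with high-grade serous ovarian cancer, and PEO1 (sensitive) and PEO4 (resistant) likewise came from a shared patient with this disease, PEO1 already after platinum chemotherapy. All lines were grown in the same medium, and the labels name no drug in the culture of these libraries. Every resistant phenotype is represented by a single line, so resistance and other differences between the lines of a pair cannot be told apart. The labels do not say whether replicates were separate cultures, so the tests measure the spread between these libraries, which may be technical.

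Lysosomes are acidic organelles in which hydrolases break down proteins, lipids and glycans, and a coat of glycosylated membrane proteins such as LAMP1 lines them. In macroautophagy a cup-shaped membrane is initiated by the ULK1 kinase and BECN1 complexes, ATG8 family proteins (the LC3 and GABARAP groups) are conjugated to its lipids by an ATG7, ATG12, ATG5 and ATG16L1 cascade, and the closed autophagosome fuses with lysosomes. TFEB and TFE3, related to MITF, are transcription factors that bind CACGTG-type sequences in promoters of many of these genes when they enter the nucleus, and their activity is controlled largely by their location in the cell rather than by their RNA level.

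The libraries held 1344098 to 7067336 reads on the listed genes, so that 3 reads, taken as the floor of detection, stood for 0.452 to 2.18 CPM (a count scaled to library size). Values are log2 CPM as deposited, and read counts of replicates varied more than counting error allows (chi-square divided by its degrees of freedom, 1.74 to 13.5), most between PEO1 replicate 3 and the other PEO1 libraries. Defining markers of ovarian epithelium did not follow the labels evenly. PAX8, WT1 and KRT7 were at 0 to 2 reads in every A2780 and CP70 library. KRT7 and KRT19 had 1 to 3 reads in PEA1 and at least 1040 reads in PEA2. Of 5 leukocyte markers 1 was in the table, PTPRC (CD45), which had 46 to 70 reads in PEA2, 0 in PEA1 and at most 2 in any other library. The study reports STR profiling of the lines, which was not analysed here, and whether the PEA1 and PEA2 libraries match their labels was not tested beyond these markers. The bulk RNA cannot tell fewer cells of a type from less RNA per cell.

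The level of the members differed widely between genes and lines. On a scale of CPM per kilobase of the canonical transcript (RPKM), PSAP, the precursor of the saposins that assist sphingolipid breakdown, ranked among the 3 highest members in every line, from 116 ± 15.7 (SD, n = 3) in A2780 to 343 ± 14.1 in PEA2. TFEB was among the 3 lowest in CP70, PEA1, PEA2, PEO1 and PEO4 at 1.74 to 4.15 RPKM. The highest member was LIPA, the lysosomal acid lipase, in A2780 (153 ± 17.8 RPKM) and CP70 (203 ± 13.1), CTSC, the peptidase that activates serine proteases of granules, in PEA1 (168 ± 16.6), CTSB, a cysteine protease, in PEA2 (747 ± 82.3), and PSAP in PEO1 (244 ± 11.3) and PEO4 (225 ± 22.5). CTSC and CTSZ in PEA1, at 168 ± 16.6 and 165 ± 16.4 RPKM, did not differ beyond their spread.

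**Figure D1:**
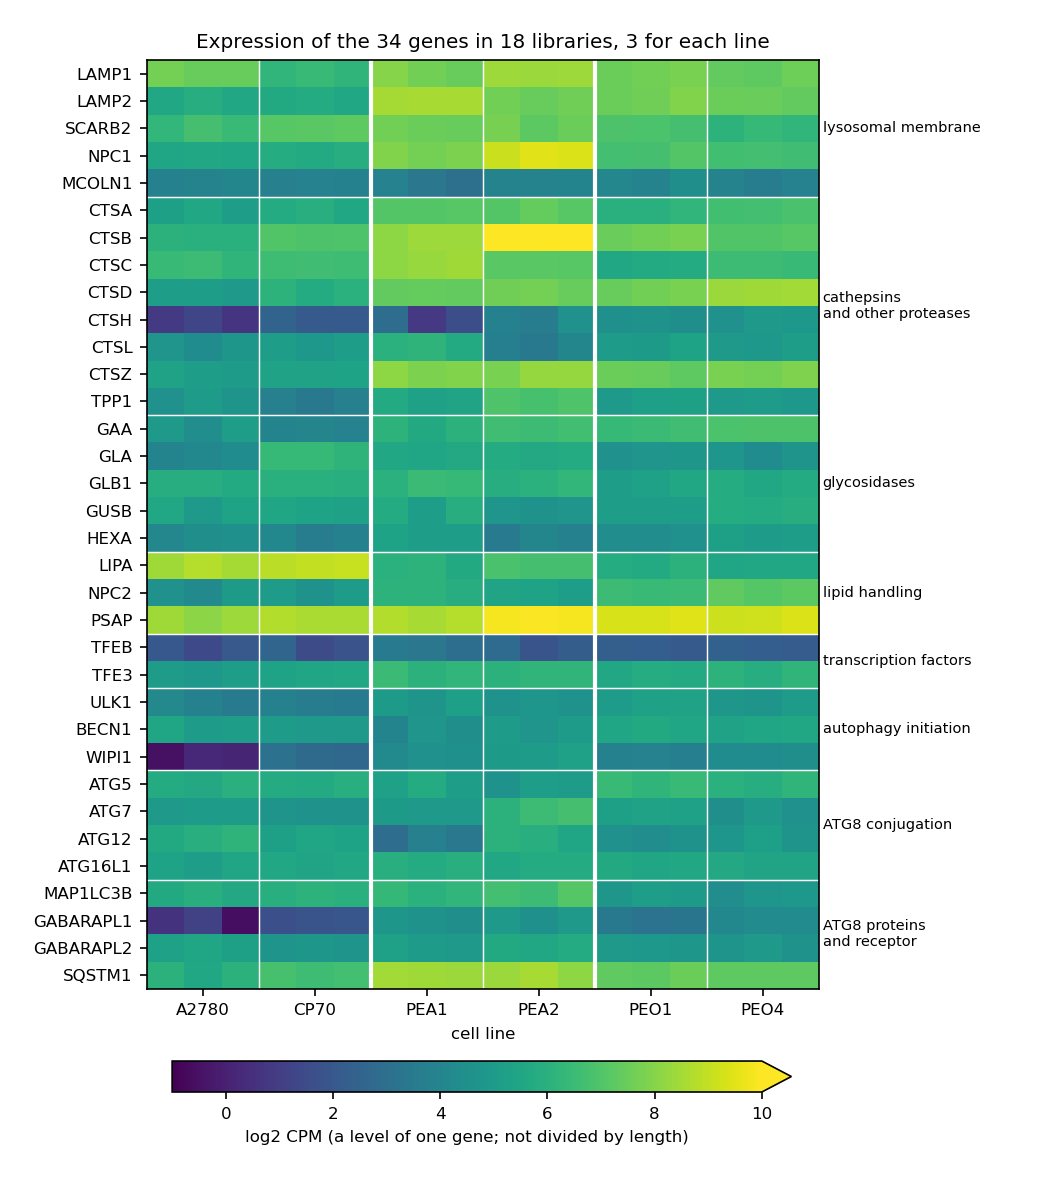
Expression (log2 CPM, colour) of the 34 genes (rows, grouped by role) in 18 libraries (columns, 3 for each line). CTSB is brightest in the 3 PEA2 libraries, LIPA in A2780 and CP70, and WIPI1, CTSH and GABARAPL1 are darkest in A2780.

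The A2780 and CP70 libraries stood apart from those of the 4 serous lines for a number of members. For 12 members all 6 of these libraries lay below all 12 serous libraries, against 13.2% of all genes, and for LIPA they lay above, against 9.62% of all genes. The 12 were LAMP2, NPC1, CTSA, CTSD, CTSZ, GAA, NPC2, TFE3, ULK1, WIPI1, GABARAPL1 and SQSTM1. LIPA lay between 8.45 and 9.07 log2 CPM in A2780 and CP70 and between 5.45 and 6.83 in the serous lines. LAMP2, a membrane protein required for the fusion of autophagosomes with lysosomes, lay between 5.56 and 5.85 in A2780 and CP70 and between 7.36 and 8.56 in the others. The annotated span of LIPA overlaps IFIT genes on the opposite strand. The origin of the lines moves with these levels, and so do 5 of 8 epithelial markers (KRT7, KRT8, KRT19, PAX8 and WT1). These markers lay lower in every A2780 and CP70 library than in any serous library. KRT7 and KRT19 did not exceed the floor of 3 reads in PEA1, whose libraries were the shallowest, so their order against PEA1 is not resolved. The part of the origin and of the markers was not tested.

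The summed CPM of the 34 genes lay between 2015 and 2040 in A2780 and between 2372 and 2405 in CP70, with no overlap. Single genes weigh heavily in this sum, with mean CPM of 382 in A2780 and 507 in CP70 for LIPA and 319 and 400 for PSAP. For LAMP1 it was 186 and 78.6, and by the test given below 13 of the 34 members rose and 6 fell. The sum therefore does not show a rise of the members in general. In the PEA pair it lay between 3809 and 3995 in PEA1 and between 6839 and 7680 in PEA2, with no overlap. CTSB made up 7.09 to 8.79% of the sum in PEA1 and 36.1 to 40.1% in PEA2. The 33 members other than CTSB summed to 3474 to 3712 in PEA1 and 4371 to 4687 in PEA2. Single genes weigh heavily in this sum as well, so it does not show a rise of the members in general. Mean CPM was 418 in PEA1 and 941 in PEA2 for PSAP, and 227 and 660 for NPC1. It was lower in PEA2 for LAMP2 (374 and 189) and CTSC (314 and 144). By the test given below, 14 of the 34 members rose and 8 fell in this pair. In PEO1 and PEO4 the ranges of 2916 to 3264 and 3105 to 3327 overlapped.

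**Figure D2:**
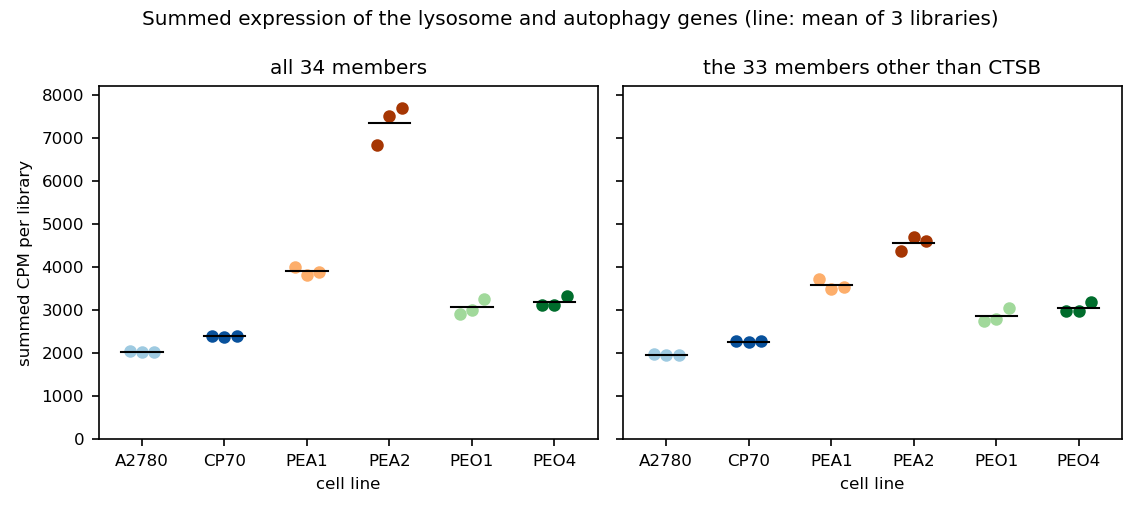
Summed CPM of all 34 members (left) and of the 33 members other than CTSB (right) in each library (points) with the mean of each line. PEA2 lies highest in both panels, between 6839 and 7680 with CTSB and between 4371 and 4687 without it.

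CP70 was compared with A2780 to find members that differ in a line made resistant in vitro. The largest increases were those of WIPI1, a protein recruited to the early autophagosome membrane, GLA, the alpha-galactosidase that removes galactose from glycolipids, and GABARAPL1, an ATG8 protein, while LAMP1, the protease TPP1 and the alpha-glucosidase GAA fell. Of the 34 members 13 rose and 6 fell at a false discovery rate (FDR) below 0.05 in limma, and 15 did not pass. Among all genes tested 22.2% rose and 17.7% fell. The members' median log2 fold change (log2FC) was 0.21, and that of all genes -0.02. WIPI1 and GLA passed |log2FC| above 2 as well, which 9.06% of all genes did.

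WIPI1 (chr17:66417089-66453654, hg19, minus strand) read -0.52, 0.22 and 0.16 log2 CPM in A2780 and 3.13, 2.81 and 2.69 in CP70. These rest on 2 to 4 reads in A2780 and 24 to 53 in CP70, and the lines did not overlap. Its log2FC was 2.92 ± 0.23 (SE, FDR 2.81e-09), and quantile normalization gave 1.59. GLA (chrX:100648261-100663000, minus strand) read 3.98, 4.14 and 4.35 in A2780 and 6.37, 6.39 and 6.15 in CP70. The gap between the lines was larger than the spread within either, and the log2FC was 2.15 ± 0.14 (4.43-fold, FDR 1.23e-10). GLA overlaps RPL36A, and WIPI1 overlaps ARSG, each on the opposite strand. The kit keeps the strand, but whether counting used it is not given in the sources used here.

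GABARAPL1 read 0.62, 1.13 and -0.58 log2 CPM in A2780 (1 to 8 reads) and 1.68, 1.88 and 1.93 in CP70 (14 to 19 reads). The lines did not overlap, and the log2FC was 1.44 ± 0.32 (FDR 0.00112). Under quantile normalization it was 0.55 and did not pass (FDR 0.112). CTSH, an aminopeptidase of the cathepsin family, had 3 to 9 reads in A2780 and a log2FC of 1.32 ± 0.39 (FDR 0.0105), which quantile normalization reduced to 0.52 (FDR 0.358).

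LAMP1 (chr13:113951554-113977987, plus strand) read 7.71, 7.44 and 7.46 log2 CPM in A2780 and 6.25, 6.43 and 6.20 in CP70. All CP70 libraries were below all A2780 libraries, and LAMP1 fell by 1.24 ± 0.12 on the log2 scale (FDR 4.97e-08), a 2.36-fold decrease. TPP1, a tripeptidyl peptidase, read 4.55, 5.10 and 4.71 in A2780 and 3.77, 3.43 and 3.79 in CP70. It fell by 1.12 ± 0.16 (FDR 1.13e-05), again without overlap. GAA, which degrades glycogen in lysosomes, read 4.95, 4.39 and 5.11 in A2780 and 3.97, 4.0 and 3.87 in CP70. No CP70 library reached the A2780 range, and GAA fell by 0.87 ± 0.15 (FDR 9.1e-05).

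The other increases in CP70 were smaller. Among proteases CTSB rose by 0.96 ± 0.10 (FDR 8.3e-08), the aspartic protease CTSD by 0.91 ± 0.11 (FDR 8.4e-07) and the carboxypeptidase CTSA by 0.42 ± 0.13 (FDR 0.0105). SQSTM1 (p62), the receptor that carries ubiquitinated cargo into autophagosomes, read 6.06, 5.57 and 6.05 log2 CPM in A2780 and 6.79, 6.58 and 6.70 in CP70. The lines did not overlap, and SQSTM1 rose by 0.79 ± 0.13 (FDR 4.02e-05). SCARB2, the receptor that delivers glucocerebrosidase to lysosomes, rose by 0.72 ± 0.13 (FDR 0.000116). LIPA, PSAP, TFE3 and the cholesterol exporter NPC1 rose by 0.28 to 0.47. The ATG8 protein GABARAPL2 fell by 0.61 ± 0.13 (FDR 0.000881), ATG12 by 0.55 and HEXA, the alpha subunit of beta-hexosaminidase, by 0.50. The libraries of CTSA and HEXA overlapped between the lines. Of 25 alternatives the call was lost in 8 for NPC1, 7 for ATG12, 5 for HEXA and 2 each for PSAP and CTSA, in most of these by leaving out 1 A2780 or CP70 library. EPCAM, KRT8 and KRT18 (0 to 5 reads in A2780 and 42 to 407 in CP70) also rose in CP70, as did 3 of 4 fibroblast markers, whose summed level was 6.19 to 12.9 CPM in A2780 and 50.5 to 57.2 in CP70, and their part in these results was not tested.

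**Figure D3:**
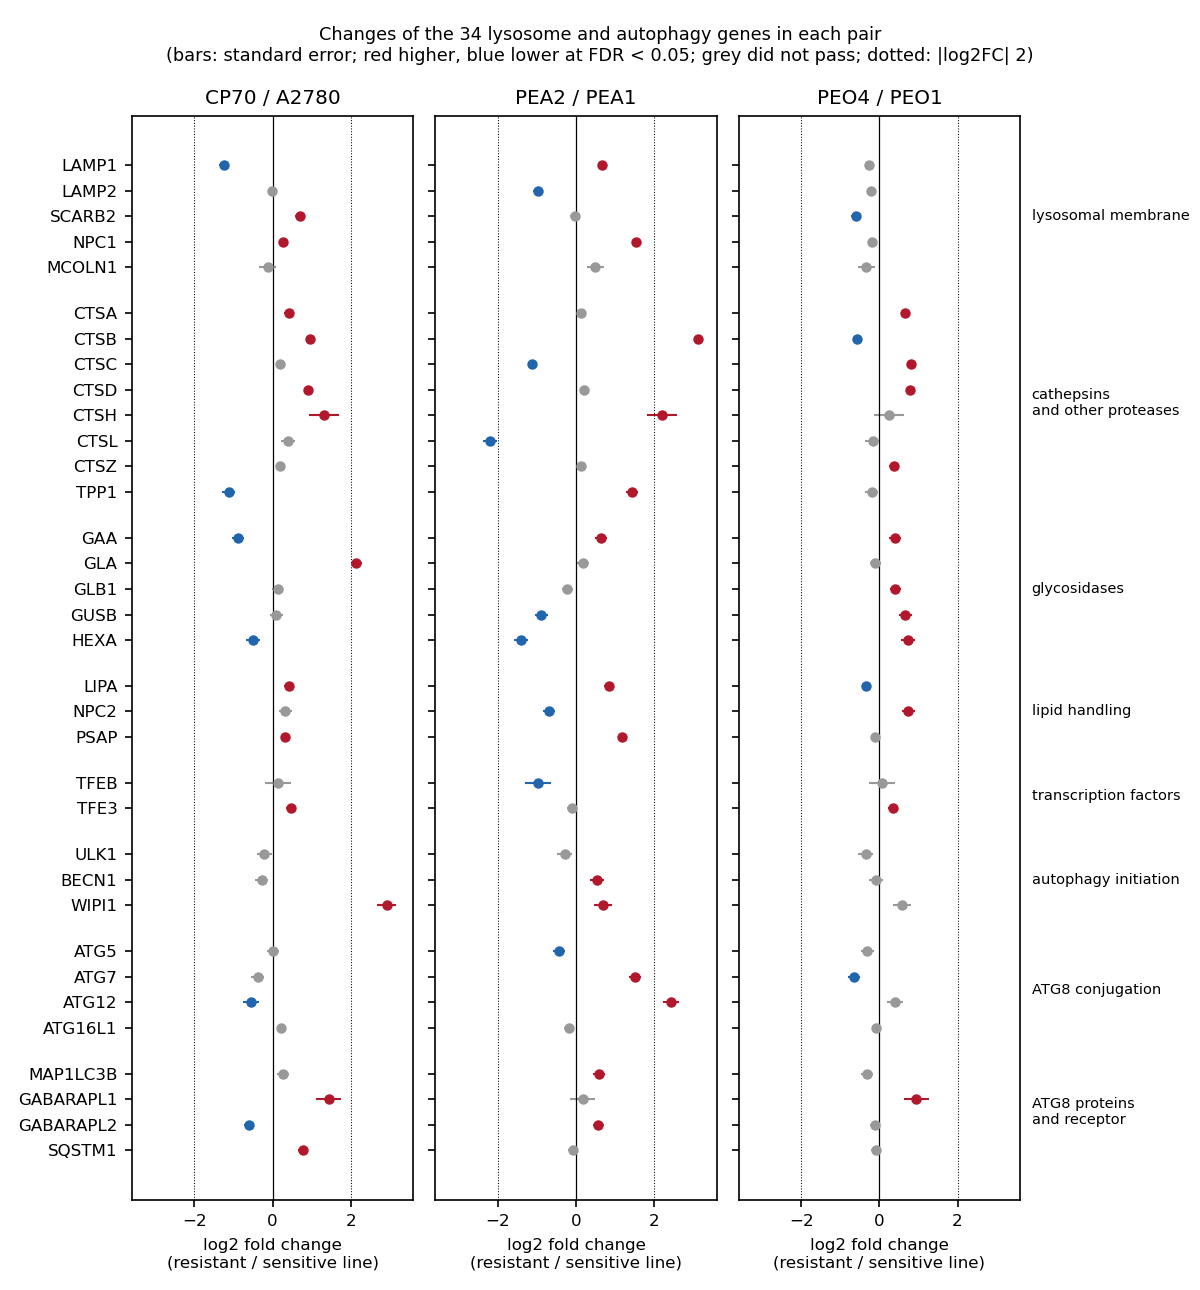
Log2 fold change of each member in the resistant against the sensitive line (points) with its standard error (bars), by pair and role. Red and blue points passed FDR below 0.05, and the points beyond the dotted lines at 2 are WIPI1 and GLA in the A2780 pair and CTSB, CTSH, ATG12 and CTSL in the PEA pair.

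PEA2 was compared with PEA1, lines isolated before chemotherapy and after relapse. CTSB, ATG12, CTSH, NPC1, ATG7 and TPP1 rose, and the cysteine protease CTSL, HEXA, CTSC and LAMP2 fell. Of the 34 members 14 rose and 8 fell at FDR below 0.05, and 12 did not pass. Most genes of the table passed in this pair, with 32.5% higher and 29.4% lower. The members' median log2FC was 0.17, and that of all genes 0.01. CTSB, ATG12, CTSH and CTSL passed |log2FC| above 2, as did 14.1% of all genes.

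CTSB (chr8:11700033-11727042, minus strand) read 8.15, 8.39 and 8.41 log2 CPM in PEA1 and 11.27, 11.46 and 11.59 in PEA2. The lines were far apart, with a log2FC of 3.12 ± 0.10 (8.72-fold, FDR 2.1e-15). CTSL (chr9:90338966-90346384, plus strand), a protease of the same papain-like class, went the other way. It read 6.01, 6.16 and 5.72 in PEA1 and 3.77, 3.43 and 4.06 in PEA2. All PEA2 libraries were below all PEA1 libraries, and CTSL fell by 2.21 ± 0.19 (4.62-fold lower, FDR 3.52e-09). CTSH had 2 to 10 reads in PEA1 and 26 to 52 in PEA2, at 2.93, 0.83 and 1.66 against 3.82, 3.61 and 4.59 log2 CPM. The lines did not overlap, but PEA1 spread widely, and the log2FC was 2.20 ± 0.39 (FDR 6.44e-05).

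The remaining cathepsins did not move as a group. CTSC read 8.14, 8.30 and 8.43 log2 CPM in PEA1 and 7.20, 7.18 and 7.13 in PEA2. The gap exceeded the spread, and CTSC fell by 1.12 ± 0.10 (FDR 4.98e-09). TPP1 rose by 1.43 ± 0.16 (FDR 2.41e-07). CTSA, CTSD and CTSZ had log2FC of 0.12 to 0.21 and did not pass (FDR 0.1 to 0.418).

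ATG12 (chr5:115163897-115177534, minus strand), the ubiquitin-like protein that is joined to ATG5, read 2.93, 3.80 and 3.41 log2 CPM in PEA1, from 10 to 19 reads, and 6.06, 5.89 and 5.51 in PEA2. The lines did not overlap, and the log2FC was 2.44 ± 0.20 (5.43-fold, FDR 3.55e-09). ATG12 overlaps AP3S1 on the opposite strand. ATG7, the enzyme that activates both ATG12 and the ATG8 proteins, read 5.01, 4.92 and 4.89 in PEA1 and 6.05, 6.53 and 6.77 in PEA2. It rose by 1.51 ± 0.16 (FDR 8.65e-08) without overlap. ATG5, the partner of ATG12, fell by 0.44 ± 0.16 (FDR 0.0234) with overlapping libraries, and ATG16L1, which places the conjugate on the membrane, had a log2FC of -0.18 ± 0.12 and did not pass (FDR 0.199). Among ATG8 proteins MAP1LC3B (LC3B) rose by 0.59 ± 0.15 (FDR 0.00247) and GABARAPL2 by 0.57 ± 0.13 (FDR 0.000866). MAP1LC3B has a near-identical copy, MAP1LC3B2, between which reads can be split, so its value is uncertain.

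Among membrane proteins NPC1 read 7.94, 7.68 and 7.85 log2 CPM in PEA1 and 9.13, 9.51 and 9.44 in PEA2, a rise of 1.54 ± 0.11 (FDR 1.97e-10). LAMP1 rose by 0.67 ± 0.12 (FDR 7.07e-05), whereas LAMP2 fell by 0.98 ± 0.11 (FDR 1.21e-07). NPC2, the soluble partner that passes cholesterol to NPC1, fell by 0.69 ± 0.16 (FDR 0.000943), so the members of this transport step moved apart. PSAP rose by 1.17 ± 0.10 (FDR 5.18e-09) and LIPA by 0.84 ± 0.11 (FDR 2.24e-06).

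HEXA read 5.38, 5.11 and 5.12 log2 CPM in PEA1 and 3.52, 4.05 and 3.85 in PEA2. No PEA2 library reached the PEA1 range, and HEXA fell by 1.40 ± 0.18 (FDR 1.55e-06). The beta-glucuronidase GUSB fell by 0.89 ± 0.17 (FDR 0.000121), and GAA rose by 0.65 ± 0.15 (FDR 0.00104). HEXA shares its strand with an unnamed read-through gene, so its reads may be split. In the same pair 6 of 8 epithelial markers were higher in PEA2, with a summed level of 427 to 587 CPM in PEA1 and 3396 to 3778 in PEA2, and PTPRC rose from 0 reads. Of 4 fibroblast markers, the collagen COL1A1 fell from 8.52 to 8.81 down to 1.73 to 2.12 log2 CPM, COL1A2 rose from 0 reads in PEA1 to 1 to 5 in PEA2, and DCN and LUM had 0 reads in both lines. Their summed level was 365.5 to 447 CPM in PEA1 and 3.45 to 6.40 in PEA2. CD14, CSF1R, CD163 and CD3E were not among the genes of the table. The part of these markers in the members' changes was not tested.

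**Figure D4:**
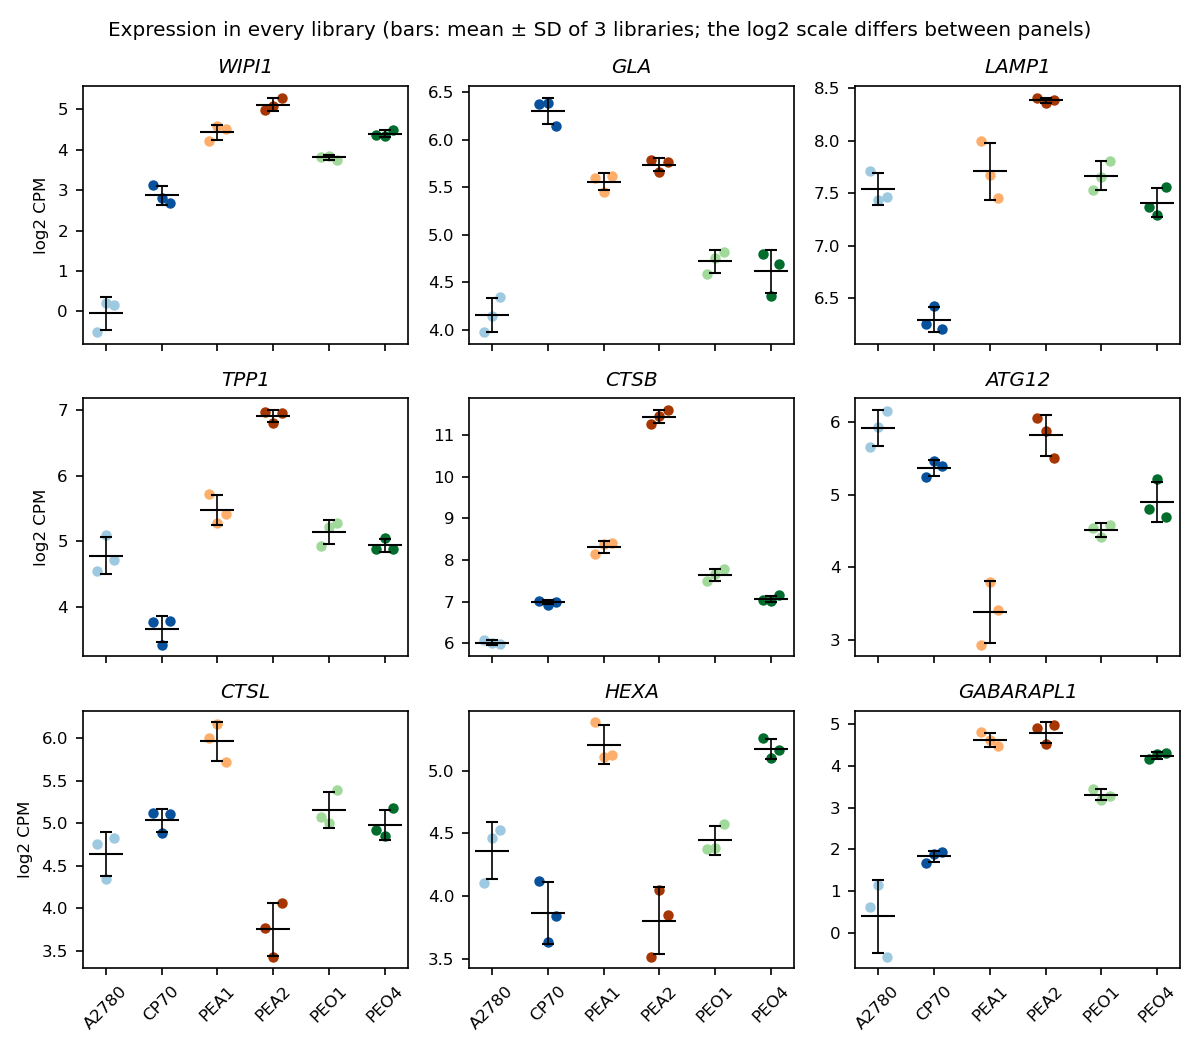
Expression (log2 CPM) of 9 members in every library (points) with the mean and SD of 3 libraries for each line. CTSB is highest in PEA2 at 11.27 to 11.59 and CTSL is lowest there at 3.43 to 4.06, while LAMP1 is lowest in CP70 at 6.20 to 6.43.

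PEO4 was compared with PEO1, lines from before and after clinical resistance. The changes were smaller, with GABARAPL1, CTSC, CTSD and NPC2 highest and ATG7, SCARB2 and CTSB lowest. Of the 34 members 11 rose, 4 fell and 19 did not pass, beside 19.6% and 21.9% of all genes. The members' median log2FC was -0.09 and that of all genes -0.02. None passed |log2FC| above 2 in limma, which 6.22% of all genes did, and the largest change was 0.94.

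GABARAPL1 read 3.45, 3.19 and 3.28 log2 CPM in PEO1 and 4.16, 4.29 and 4.30 in PEO4. The lines did not overlap, and the log2FC was 0.94 ± 0.32 (FDR 0.0229). CTSC read 5.61, 5.71 and 5.77 in PEO1 and 6.54, 6.53 and 6.44 in PEO4, and rose by 0.80 ± 0.10 (FDR 1.26e-06). CTSD read 7.45, 7.64 and 7.81 in PEO1 and 8.37, 8.41 and 8.48 in PEO4, and rose by 0.79 ± 0.11 (FDR 6.86e-06). Neither pair of ranges overlapped. Of 5 glycosidases 4 rose (HEXA 0.73, GUSB 0.66, GAA 0.40 and GLB1 0.40) and 0 fell in limma. Of 8 proteases 4 rose (CTSC, CTSD, CTSA 0.67 and CTSZ 0.37) and 1 fell (CTSB). NPC2 rose by 0.74 ± 0.16 (FDR 0.000905).

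ATG7 read 5.26, 5.33 and 5.31 log2 CPM in PEO1 and 4.48, 4.92 and 4.54 in PEO4. All PEO4 libraries were lower, and ATG7 fell by 0.65 ± 0.16 (FDR 0.00237). SCARB2 read 6.93, 6.87 and 6.77 in PEO1 and 6.12, 6.38 and 6.24 in PEO4, and fell by 0.61 ± 0.13 (FDR 0.000614) without overlap. CTSB read 7.49, 7.66 and 7.77 in PEO1 and 7.03, 7.01 and 7.15 in PEO4. It fell by 0.58 ± 0.10 (FDR 6.9e-05), and LIPA fell by 0.34 ± 0.11 (FDR 0.0217). ATG7 overlaps VGLL4 and SCARB2 overlaps FAM47E, each on the opposite strand. The calls for CTSZ, GABARAPL1, GAA, GLB1, LIPA and TFE3 in this pair were lost when single libraries were left out, and without PEO4 replicate 3 the count of members that rose was 6. Of 8 epithelial markers EPCAM (log2FC 0.46, FDR 0.0402) and WT1 (1.44, FDR 0.00243) rose and KRT7 fell by 2.44 (FDR 0.000291). The summed fibroblast markers lay at 3.26 to 7.39 CPM in PEO1 and 14.2 to 17.3 in PEO4, where COL1A2 rose from 1 to 2 reads to 22 to 30. The part of these markers in the members' changes was not tested.

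The members' calls were set side by side over the 3 pairs. Of the 34 members 3 passed in no pair (MCOLN1, ATG16L1 and ULK1), against 15.7% of all genes, 10 in 1 pair, 17 in 2 pairs and 4 in all 3. A rise in one pair with a fall in another was found for 13 members, against 27.5% of all genes. The same direction in 2 pairs was found for 12 members, 11 higher and 1 lower (HEXA). Of the 12, 8 were not called the other way in the remaining pair (NPC1, CTSA, CTSD, CTSH, PSAP, TFE3, WIPI1 and GABARAPL1). The shares of all genes called in 1, 2 or 3 pairs, or the same way in 2, were not counted. These counts are therefore not read as a trait of the members. Among the 8, CTSD kept both its calls in all 25 alternatives. CTSD overlaps an unnamed gene on its own strand, so its reads may be split. Calls were lost in at least 1 alternative for NPC1, CTSA, CTSH, PSAP and GABARAPL1 in CP70, WIPI1 in PEA2, and TFE3 and GABARAPL1 in PEO4. The fall of HEXA in CP70 was lost in 5 of the 25. CTSB rose in CP70 and PEA2 and fell in PEO4. TPP1, GAA, LAMP1, ATG12 and GABARAPL2 fell in CP70 and rose in PEA2, the fall of ATG12 in CP70 being lost in 7 of 25 alternatives. HEXA, GUSB, CTSC and NPC2 fell in PEA2 and rose in PEO4.

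No member passed in the same direction in all 3 pairs, where 1.59% of all genes were higher and 1.21% lower. At an unadjusted p below 0.05 in each pair, 1 member was higher in all 3 (WIPI1) and 0 were lower. The share of all genes under this looser rule was not counted, so this is not read as a trait of the members. WIPI1 rose in PEA2 by 0.69 ± 0.23 (FDR 0.0157), and in PEO4 its log2FC was 0.58 ± 0.23 (FDR 0.0523). In PEO1 it read 3.83, 3.86 and 3.75 log2 CPM and in PEO4 4.36, 4.34 and 4.49, so the libraries did not overlap in any pair. WIPI1 was higher in all 3 pairs in 6 of the 7 alternative fits, with FDR 0.00432 to 0.0493 in PEO4 (0.0615 with the replicate block), and in 3 of the 18 fits that left out 1 library, those without an A2780 replicate. In PEA2 its call was lost without PEA1 replicate 1 and without PEA2 replicate 3.

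Several members passed in no pair or in 1 pair by a small change. ULK1, the kinase that starts autophagy, read 3.52 to 4.20 log2 CPM in A2780 and CP70, 4.61 to 5.19 in PEA1 and PEA2 and 4.67 to 5.32 in PEO1 and PEO4. Its log2FC of -0.21 ± 0.19, -0.29 ± 0.19 and -0.35 ± 0.19 in the A2780, PEA and PEO pairs did not pass (FDR 0.401, 0.181 and 0.143). ATG16L1 stayed between 5.13 and 5.96 log2 CPM in all 18 libraries, and its log2FC lay between -0.18 and 0.22. BECN1, a subunit of the lipid kinase complex that nucleates the membrane, rose in PEA2 by 0.54 ± 0.17 (FDR 0.0104) with overlapping libraries, a call lost without PEA1 replicate 1, with voom weights and with the pair fitted alone. ATG5 passed in PEA2 alone, and its call there was lost in 4 alternatives. MCOLN1 read 3.06 to 4.49 log2 CPM over all libraries, and in PEA2 its log2FC of 0.50 ± 0.22 lay just outside the threshold (FDR 0.0528). GLB1, the beta-galactosidase used as a stain of senescent cells, passed in PEO4 alone. GLB1 and MCOLN1 overlap other genes on their own strand (TMPPE and PNPLA6), so their reads may be split.

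The differences between the pairs were tested as contrasts of their log2FC, at FDR below 0.05 and a difference above 2. Between the PEA and A2780 pairs 5 members passed (20.4% of all genes did). The log2FC was higher in the PEA pair for ATG12 (2.99 ± 0.29, FDR 3.76e-08), TPP1 (2.55 ± 0.23, FDR 1.35e-08) and CTSB (2.16 ± 0.14, FDR 8.61e-11). It was lower there for CTSL (-2.61 ± 0.26, FDR 6.26e-08) and WIPI1 (-2.23 ± 0.33, FDR 9.83e-06). ATG12 and TPP1 fell in the A2780 pair and rose in the PEA pair, and CTSL fell in the PEA pair. Between the PEO and A2780 pairs GLA (-2.25 ± 0.20, FDR 1.57e-08) and WIPI1 (-2.34 ± 0.33, FDR 8.31e-06) passed, 2 members beside 14.9% of all genes. Between the PEA and PEO pairs 5 members passed, beside 19.4% of all genes, namely CTSB (3.70 ± 0.14, FDR 5.93e-14), ATG7 (2.16 ± 0.22), ATG12 (2.05 ± 0.29), CTSL (-2.03 ± 0.26) and HEXA (-2.13 ± 0.26). Of 24 alternatives 6 brought CTSL, 5 ATG12 and 1 HEXA to a difference under 2 in this last comparison, and 3 and 2 did so for WIPI1 in the PEA and PEO comparisons with the A2780 pair. These contrasts share libraries, so they are not independent of each other.

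A model with the pair and the sensitivity as terms asked for an average change over the pairs. It called 10 members higher (12.5% of all genes) and 1 lower (11.6% of all genes). WIPI1 (1.40 ± 0.29, FDR 0.00321), CTSH (1.25 ± 0.30, FDR 0.00759), CTSB (1.17 ± 0.37, FDR 0.0307), GABARAPL1 (0.85 ± 0.23, FDR 0.0133), GLA (0.74 ± 0.26, FDR 0.0449) and CTSD (0.64 ± 0.10, FDR 0.000435) were higher, with NPC1, PSAP, CTSA and CTSZ between 0.24 and 0.54. LAMP2 fell by 0.40 ± 0.12 (FDR 0.0257). The model treats libraries as replicates, and with the 3 pair differences as the replicates 0 members passed in limma, 0 of them at an unadjusted p below 0.05. The share of all genes passing in that fit was not counted. Without PEA1 replicate 2 or PEA2 replicate 3, 5 members were higher and 0 lower.

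TFEB and TFE3, the transcription factors of this pathway, changed by less than 1 on the log2 scale in every pair, most for TFEB in PEA2. TFEB lay on 9 to 36 reads in every library. It read 3.58, 3.37 and 2.96 log2 CPM in PEA1 and 2.85, 1.85 and 2.26 in PEA2, without overlap. TFEB fell there by 0.98 ± 0.34 (FDR 0.0158), a call that was lost without PEA1 replicate 1 or PEA2 replicate 2. In CP70 and PEO4 its log2FC of 0.14 and 0.07 did not pass (FDR 0.768 and 0.893). TFE3 rose by 0.47 ± 0.13 in CP70 (FDR 0.00612) and by 0.34 ± 0.13 in PEO4 (FDR 0.0417), and its log2FC of -0.10 in PEA2 did not pass (FDR 0.532). MITF, of the same family and not a member, was at 0 to 3 reads in A2780 and 11 to 29 in CP70, at least 4.51-fold higher in CP70 against 3 reads per library. It rose in PEA2 by 2.09 ± 0.52 (FDR 0.00168) and fell in PEO4 by 2.16 ± 0.52 (FDR 0.00215).

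The promoters of the members were searched for the letters CACGTG, the core sequence that TFEB-type factors bind, which read the same on both strands. RefSeq promoters of GRCh38.p14, from 250 bases before to 50 after the gene's start, were matched for 30 of the 34 members, with LAMP2, CTSB, HEXA and PSAP not matched. The letters occurred in 5 of them (16.7%), against 7.43% of 27305 promoters and 10.3% of the 8983 promoters of genes in the table. The longer TCACGTGA, which contains CACGTG, occurred in 4 of the 5 (13.3% of the 30), against 1.04% of all promoters and 1.99% of those in the table. LAMP1 held 6 copies of CACGTG in its window, GAA, MCOLN1 and CTSA 2 each and CTSD 1. The copies shown are those nearest the start of each of the 5 genes, with CACGTG in capitals, 5′ to 3′ on the strand of the gene:
LAMP1: cggcgcagctCACGTGacaagcgctg
GAA: tcccgccggtCACGTGacccgcctct
MCOLN1: gctaccgggtCACGTGaccgaggcac
CTSA: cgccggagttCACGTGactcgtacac
CTSD: cggccgcgccCACGTGaccggtccgg

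These stretches lie at chr13:113297228-113297253 (LAMP1, plus strand), chr17:80101540-80101565 (GAA, plus strand), chr19:7522600-7522625 (MCOLN1, plus strand), chr20:45891300-45891325 (CTSA, plus strand) and chr11:1763959-1763984 (CTSD, minus strand) of GRCh38.p14. The 5 genes did not move together. In CP70 CTSA and CTSD rose, LAMP1 and GAA fell, and MCOLN1, a lysosomal calcium channel, had a log2FC of -0.12 (FDR 0.692). In PEA2 LAMP1 and GAA rose and 3 did not pass. In PEO4 CTSA, CTSD and GAA rose and 2 did not pass. Of the 25 matched members without the letters, 9 rose and 3 fell in CP70, 10 rose and 6 fell in PEA2, and 7 rose and 3 fell in PEO4. A match of letters is not a bound site, and binding was not measured in these libraries.

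Other genes of the lysosome and autophagy, taken from lists of their roles, were counted in the same fits. Of 31 other lysosomal hydrolases and activators, 11 rose and 4 fell in CP70, 10 rose and 10 fell in PEA2, and 6 rose and 7 fell in PEO4. In CP70 the cathepsins CTSK, a collagen-degrading protease (-5.57 ± 0.72), and CTSF (-4.45 ± 0.30) fell, and in PEA2 CTSO (-3.45 ± 0.62) and the acid phosphatase ACP2 (-2.60 ± 0.28) fell. CTSK had 64 to 110 reads in A2780 and 0 to 11 in CP70.

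Of 23 other membrane and sorting proteins, 7 rose and 6 fell in CP70, 7 rose and 7 fell in PEA2, and 3 rose and 4 fell in PEO4. SLC17A5, the sialic acid exporter of lysosomes, read 3.18, 3.02 and 3.26 log2 CPM in A2780 and 5.27, 5.26 and 5.08 in CP70. It read 4.32, 3.87 and 3.87 in PEA1 and 7.50, 7.24 and 7.30 in PEA2, and 2.59, 2.65 and 2.81 in PEO1 and 3.49, 4.24 and 4.21 in PEO4. SLC17A5 rose in every pair, by 2.04 ± 0.20, 3.33 ± 0.20 and 1.29 ± 0.20 (FDR 4.99e-08, 2.41e-11 and 2.55e-05). In PEO4 it is named after its values were seen, as it lay under a log2FC of 2 there. LAMP3, a LAMP protein of specialised cells, likewise rose in every pair (FDR 0.00196, 2.91e-11 and 0.00054). It had 0 to 2 reads in A2780 and 4 to 6 in CP70, at least 1.06-fold higher against 3 reads per library. In PEA1 it had 0 reads and in PEA2 192 to 195, at least 41.1-fold higher. In PEO1 it had 4 to 8 reads and in PEO4 14 to 29, with a log2FC of 2.33 ± 0.48. A rise in all 3 pairs at FDR below 0.05 was found for 1.59% of all genes. How many genes of these other lists did so was not counted, so SLC17A5 and LAMP3 are not read as a trait of the lists. In PEA2 NAGPA, which uncovers the mannose 6-phosphate sorting signal, fell by 3.46 ± 0.29 (FDR 3.93e-09).

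Of 21 subunits of the vacuolar ATPase, the proton pump that acidifies lysosomes, 4 rose and 1 fell in CP70, 8 rose and 3 fell in PEA2, and 2 rose and 9 fell in PEO4, where the median log2FC was -0.34. ATP6V0D2, a subunit with restricted expression, had 26 to 102 reads in A2780 and 0 to 2 in CP70, at least 30.3-fold lower. ATP6V1B1, a subunit typical of acid-secreting epithelia, had 2 to 14 reads in PEO1 and 95 to 145 in PEO4 and rose by 4.86 ± 0.68 (FDR 8e-06).

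Of 22 other proteins of the autophagosome machinery, 3 rose and 3 fell in CP70, 10 rose and 4 fell in PEA2, and 3 rose and 2 fell in PEO4. Of 10 other autophagy receptors the counts were 4 and 3, 5 and 4, and 3 and 2. For 24 regulators of TFEB, the Rag GTPases and mTORC1, they were 5 and 5, 6 and 8, and 3 and 5, with NPRL3, a brake on mTORC1, falling in PEA2 by 2.85 ± 0.13 (FDR 6.27e-13). For 13 proteins of lysosome fusion they were 1 and 3, 5 and 4, and 3 and 4, and VAMP8, a SNARE of autophagosome fusion, rose in CP70 by 2.53 ± 0.22 (FDR 1.22e-08). These shares stand beside the percentages of all genes given above for each pair.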

How the data were processed

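Libraries were made from rRNA-depleted RNA with a strand-specific kit. The submitters' processing notes name hg19, Bowtie2, featureCounts and limma. The authors deposited log2 CPM of 12853 genes, in which each count was raised by 0.5 reads and divided by the library's scaled size. The filter on genes, the scaling and the strand setting are not given in the sources used here. Whole reads were recovered from 100% of the values (tolerance 0.1 reads) and gave the depth and the floor of 3 reads, which cover counting error only.

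The log2 values were fitted with limma 3.58.1 (R 4.3.3) as a mean for each of the 6 lines over 18 libraries, with a variance trend and the Benjamini-Hochberg FDR over 12853 genes. Replicate numbers were not used to pair libraries. The script was tested on simulated data. RPKM used the canonical transcript, and spans and overlaps the GENCODE v44 annotation of GRCh37. 14 members overlapped another gene on the opposite strand and 5 on the same strand.

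Named in depth were members past FDR 0.05 and |log2FC| 2, the 3 highest and 3 lowest that passed without overlap in each pair, TFEB and TFE3. From the other lists, at most 2 genes past |log2FC| 2 were named for each pair. The members, lists and tests were chosen with earlier results of these data known. The alternatives tried were each pair alone, a filter on a mean log2 value above 0, quantile normalization, a replicate block, no variance trend, voom weights, 2 reads added, |log2FC| above 1, the pair differences as replicates and leaving out each library.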

Additional observations from a re-analysis of the deposited data

Results flagged for a closer look

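The change with resistance differed between pairs by more than 2 on the log2 scale, at FDR below 0.05 in a contrast of both changes in limma, for the following members. In the PEA pair less the A2780 pair the differences were 2.99 for ATG12, 2.55 for TPP1, 2.16 for CTSB, -2.61 for CTSL and -2.23 for WIPI1. In the PEO pair less the A2780 pair they were -2.25 for GLA and -2.34 for WIPI1. In the PEA pair less the PEO pair they were 3.70 for CTSB, 2.16 for ATG7, 2.05 for ATG12, -2.03 for CTSL and -2.13 for HEXA. ATG12 and TPP1 fell in CP70 and rose in PEA2, and CTSB rose in PEA2 and fell in PEO4. The WIPI1 differences rest on 2 to 4 reads in A2780 and were -0.98 and -0.94 under quantile normalization. In the PEA less PEO comparison the difference was under 2 in 6 of 24 alternatives for CTSL (nearest to 0 at -1.87), in 5 for ATG12 (1.83) and in 1 for HEXA (-1.98). Groups of 3 libraries were too small for the search for single distant libraries.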

How the results depend on the processing

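Of the members called in the A2780, PEA and PEO pairs, 12 of 19, 18 of 22 and 9 of 15 passed in the same direction under all 25 alternatives to the fit, and no call changed direction. Many of the 25 could not change a direction. Leaving out a library of another pair, the pair fitted alone, the filter, the replicate block and no variance trend all keep the log2FC. In these fits only the FDR could move, so counts out of 25 are a weak measure of stability. The threshold |log2FC| above 1 gave 6 members in the A2780 pair and 10 in the PEA pair, in place of 2 and 4. The share of all genes past this lower threshold was not counted, so these numbers cannot be set against the table as a whole. Quantile normalization left 1 member past |log2FC| 2 in the A2780 pair (WIPI1 was lost), 2 lower over all pairs and 1 past the difference of 2 between the PEO and A2780 pairs, and it moved the median log2FC of all genes in the PEA pair from 0.01 to -0.10. Voom weights gave 7 members lower in PEO4. Adding 2 reads left 1 member for the PEO less A2780 difference and 3 for the PEA less PEO difference. With the 3 pair differences as replicates, 0 members were higher and 0 lower over all pairs. Same-numbered libraries correlated between -0.184 and 0.22 in their deviations, and differently numbered ones between -0.249 and 0.154. These few values cannot settle whether same-numbered libraries were handled together. The replicate block gave 4 members higher and 0 lower over all pairs and changed no call of a member within a pair. The shares of all genes over all pairs were not counted for the replicate block or for the pair differences.

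Leaving out each library in turn gave 11 to 13 members higher and 4 to 7 lower in the A2780 pair, 13 to 15 and 7 to 9 in the PEA pair, and 6 to 12 and 3 to 5 in the PEO pair (6 without PEO4 replicate 3). Past |log2FC| 2 it gave 2 to 2, 3 to 4 and 0 to 0. Over all pairs 5 to 10 were higher and 0 to 2 lower (5 and 0 without PEA1 replicate 2 or PEA2 replicate 3, 6 higher without A2780 replicate 2, PEA1 replicate 3, PEA2 replicate 1 or PEA2 replicate 2, 2 lower without A2780 replicate 3, 0 lower without PEA1 replicate 1 or 3). The pair differences gave 4 to 6, 2 to 2 and 3 to 6 members (3 without PEO4 replicate 3). Depth limits CTSH, GABARAPL1, WIPI1 and TFEB, which had under 10 reads in at least 1 library. The cause of these changes was not tested.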
